A study of Mus musculus with 10 samples.

Results

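Transcript levels of 10 pluripotency factors (Pou5f1, Nanog, Tfcp2l1, Klf4, Zfp42, Prdm14, Tfap2c, Dppa3, Tdgf1 and Lin28b) were followed in the mouse testis. The members were taken by gene name from a table of raw read counts that held 30719 genes, so they are 10 of 30719. Whole testes came from 5 wild-type mice (libraries 3, 4, 5, 6 and 9) and 5 FXR-/- mice (libraries 8 to 12), all at postnatal day 10 and each library from a single animal. FXR-/- mice lack the bile acid receptor FXRα (farnesoid X receptor), a nuclear receptor encoded by Nr1h4. No treatment was given, the strain entry is a 129sv and C57Bl mixture in both genotypes, and the labels name neither the deleted part of the gene nor a tissue restriction. The comparison asks which of these factors differ in level between the genotypes at this age.

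In embryonic stem cells these factors form a network of transcription factors and cofactors that holds cells in an undifferentiated state. Several of them are used again in the germ line, where they act in primordial germ cells and stay on in early spermatogonia before differentiation silences them. Pou5f1 and Lin28 genes are known from undifferentiated spermatogonia of the postnatal testis, Klf4 also from Sertoli cells and post-meiotic germ cells, and Tfcp2l1 also from duct epithelia.

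Libraries held 32330029 to 39655170 counts. Levels are given as CPM, counts brought to a common library total, with library sizes scaled by TMM factors, which balance the composition of libraries, and each genotype mean stands with its SD over 5 mice. Nr1h4 gave 13 to 26 counts in wild-type and 8 to 13 in FXR-/- libraries, with a log2 fold change of -0.84 (SE 0.234, edgeR adjusted p = 0.0347), so reads from the targeted gene remained and the genotype ranges met at 13 counts. Among 18559 genes tested with edgeR's quasi-likelihood test, 13.9% were called changed at an adjusted p under 0.05, 6.17% higher and 7.71% lower in FXR-/- testes. In 11.6% of tested genes the 5 values of one genotype did not overlap the 5 of the other, in 5.12% all FXR-/- values lay above all wild-type values, and 53.3% had a log2 fold change above 0. Called genes were 44.5% higher and the rest lower under TMM scaling, against 61.5% higher with library totals alone, while the 3 members called below were the same 3 under every scaling tried.

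Of the 10 factors, 8 had enough counts to be tested. Pou5f1, Nanog and Tfcp2l1 were higher in FXR-/- testes, none was lower, and Zfp42, Klf4, Tfap2c, Dppa3 and Lin28b did not pass the test. Prdm14 lay near the detection limit and Tdgf1 at it. The 3 rises stand against 6.17% of all tested genes called higher, and 7 of the 8 tested members had a log2 fold change above 0, against 53.3% of all genes. The median log2 fold change of the 8 was 0.39, against 0.01 over all tested genes. The factors were chosen with earlier results of these data known, so these shares and medians are no test of the group.

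The 250 bases before the RefSeq start (GRCm38.p6) are printed for the 3 factors that rose and for Zfp42. Zfp42 is the only member whose window holds the full octamer that POU factors bind. Capitals mark matches, on either strand, to the octamer ATGCAAAT, its variant ATGCAAAA, the nuclear receptor hexamer AGGTCA, the E-box CACGTG, the GC box GGGCGG and the TATA box TATAAA.
Pou5f1 (chr17:35505782-35506031, plus strand): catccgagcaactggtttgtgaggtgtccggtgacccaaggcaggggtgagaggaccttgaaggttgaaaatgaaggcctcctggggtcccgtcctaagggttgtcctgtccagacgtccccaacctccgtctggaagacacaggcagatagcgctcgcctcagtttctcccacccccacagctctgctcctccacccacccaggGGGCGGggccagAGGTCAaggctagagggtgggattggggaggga
Nanog (chr6:122707239-122707488, plus strand): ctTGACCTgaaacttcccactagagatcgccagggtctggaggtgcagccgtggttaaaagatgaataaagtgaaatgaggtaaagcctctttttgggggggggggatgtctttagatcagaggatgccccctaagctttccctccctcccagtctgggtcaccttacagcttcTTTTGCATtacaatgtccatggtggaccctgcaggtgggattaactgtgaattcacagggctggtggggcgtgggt
Tfcp2l1 (chr1:118627695-118627944, plus strand): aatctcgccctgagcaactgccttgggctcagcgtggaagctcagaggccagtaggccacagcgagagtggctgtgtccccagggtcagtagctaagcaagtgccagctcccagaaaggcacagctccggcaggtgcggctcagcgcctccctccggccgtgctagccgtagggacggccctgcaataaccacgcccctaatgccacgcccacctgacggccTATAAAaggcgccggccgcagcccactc
Zfp42 (chr8:43307010-43307259, minus strand): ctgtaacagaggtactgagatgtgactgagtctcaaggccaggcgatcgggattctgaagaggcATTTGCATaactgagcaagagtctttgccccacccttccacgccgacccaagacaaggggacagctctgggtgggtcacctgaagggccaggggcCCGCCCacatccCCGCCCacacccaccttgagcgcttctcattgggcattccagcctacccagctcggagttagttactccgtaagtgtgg
The Pou5f1 window, on the plus strand, has a GC box at -45 and the hexamer AGGTCA at -33 from the start. The Nanog window has the hexamer on the opposite strand at -248 and the octamer variant on the opposite strand at -76. The Tfcp2l1 window has a TATA box at -28 and none of the other motifs. The Zfp42 window has the octamer on the opposite strand at -186 and GC boxes at -91 and -79. Of 32851 RefSeq promoter windows of the same length, 14.0% held AGGTCA, 1.60% ATGCAAAT, 0.928% ATGCAAAA, 32.7% GGGCGG and 12.4% TATAAA, so the hexamer and the GC box are common letters and the octamer is rare. The variant was searched after the Nanog window had been seen without a full octamer. A match says only that the letters are present, and no binding was measured. Windows were found for 7 of the 10 factors (not Dppa3, Prdm14 or Tfap2c). Among those not printed, Klf4 had an E-box (in 6.02% of windows) and 4 GC boxes, Lin28b an E-box at -49 and Tdgf1 a GC box at -6. The RefSeq start used for Lin28b lies 16194 bases inside the gene as annotated in GENCODE M21, so its E-box is not next to that annotated start.

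**Figure D1:**
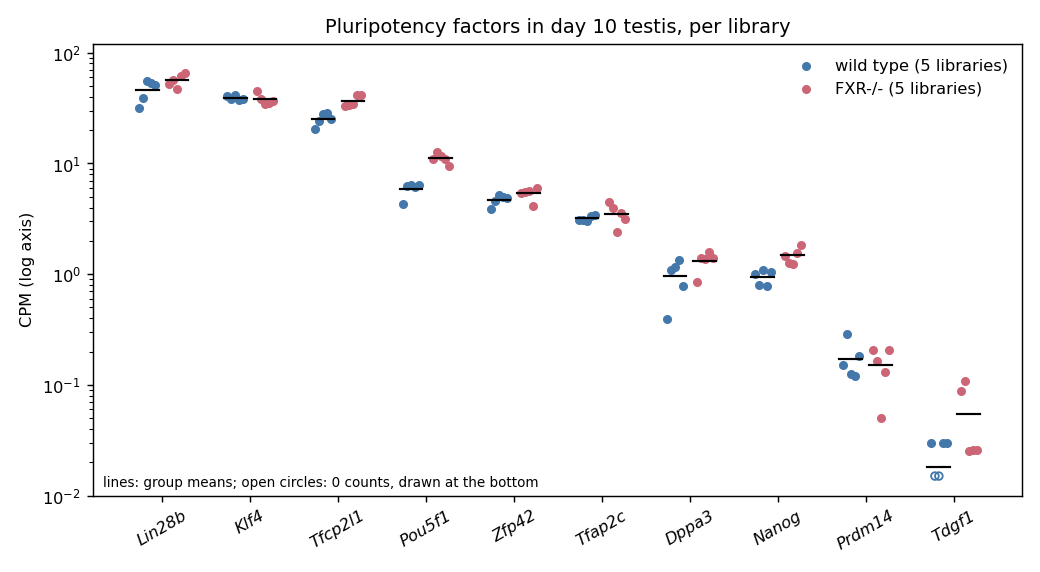
Level of each factor in CPM on a log axis, 1 point per library, with wild-type (5) and FXR-/- (5) libraries side by side and lines at the genotype means; open circles at the bottom are libraries with 0 counts. The FXR-/- points of Pou5f1, Nanog and Tfcp2l1 all sit above the wild-type points, those of the other measured factors overlap, and Tdgf1 sits near 0.

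Pou5f1 encodes OCT4, the POU-domain protein at the centre of the network. It lies at chromosome 17, 35506018 to 35510772 (GRCm38, plus strand, ENSMUSG00000024406). In wild-type libraries 3, 4, 5, 6 and 9 its level was 4.30, 6.22, 6.36, 6.13 and 6.42 CPM, from 143 to 216 counts. In FXR-/- libraries 8 to 12 it was 10.9, 12.7, 11.7, 11.0 and 9.58 CPM, from 369 to 468 counts. The lowest FXR-/- library was therefore well above the highest wild-type library, and wild-type library 3 stood below its group. The mean rose from 5.89 ± 0.891 to 11.2 ± 1.16 CPM (SD, n = 5 each), a 1.90-fold rise with a log2 fold change of 0.93 (SE 0.117, edgeR adjusted p = 0.000566). An interval of 2 SE ran from 0.69 to 1.16. For scale, 26.1% of the 1146 genes that rose had a larger log2 fold change, and the median size of the change among all called genes was 0.36. Gm19553, an annotated antisense gene inside Pou5f1, had 0 to 1 counts per library.

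Nanog, a homeodomain protein that acts with OCT4 in self-renewal, lies at chromosome 6, 122707489 to 122714633 (plus strand, ENSMUSG00000012396). It was a low gene, with 26 to 35 counts in each wild-type and 46 to 72 in each FXR-/- library. Its level was 0.993, 0.806, 1.10, 0.778 and 1.05 CPM in wild-type libraries 3, 4, 5, 6 and 9. In FXR-/- libraries 8 to 12 it was 1.47, 1.25, 1.24, 1.56 and 1.85 CPM. The genotypes did not overlap, but FXR-/- libraries 9 and 10 lay close to the highest wild-type library. The mean rose from 0.946 ± 0.146 to 1.48 ± 0.252 CPM, 1.56-fold (log2 fold change 0.64, SE 0.161, edgeR adjusted p = 0.0227). This call rested on single libraries: the adjusted p was 0.0602 without wild-type library 4, 0.0521 without wild-type library 6, 0.0552 without FXR-/- library 11 and 0.0561 without FXR-/- library 12, with log2 fold changes of 0.55 to 0.70 over all 10 such fits.

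Tfcp2l1, a grainyhead-family transcription factor of the naive state, lies at chromosome 1, 118627945 to 118685168 (plus strand, ENSMUSG00000026380). Its level was 20.6, 24.1, 27.9, 28.7 and 25.03 CPM in wild-type libraries 3, 4, 5, 6 and 9. In FXR-/- libraries 8 to 12 it was 33.1, 33.7, 34.7, 41.8 and 41.3 CPM. All FXR-/- libraries were above the highest wild-type library, with libraries 11 and 12 highest. The mean rose from 25.2 ± 3.23 to 36.9 ± 4.27 CPM, 1.46-fold (log2 fold change 0.55, SE 0.0987, edgeR adjusted p = 0.00503).

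**Figure D2:**
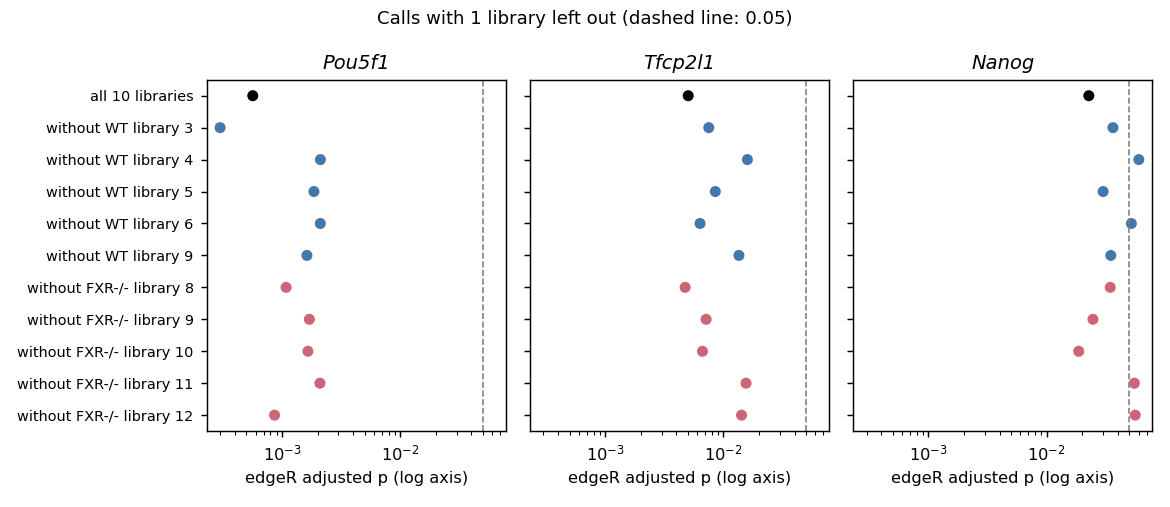
Adjusted p of edgeR's quasi-likelihood test (log axis) for the 3 factors that rose, with all 10 libraries (black) and with each wild-type (blue) or FXR-/- (red) library left out; the dashed line is at 0.05. Pou5f1 and Tfcp2l1 stay left of the line in every fit, and Nanog crosses it in 4 of them.

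The calls of Pou5f1 and Tfcp2l1 held with any single library left out. Pou5f1 then had log2 fold changes of 0.83 to 0.98 with adjusted p-values of at most 0.0021, and Tfcp2l1 0.48 to 0.60 with at most 0.0160. FXR-/- libraries 9 and 10 carried the most adipocyte transcripts; without both, log2 fold changes were 0.83 for Pou5f1, 0.78 for Nanog and 0.61 for Tfcp2l1, and edgeR called each of them (adjusted p = 0.00412, 0.0160 and 0.00818).

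Klf4 and Zfp42 belong with Tfcp2l1 to the naive state of embryonic stem cells. Klf4, a zinc-finger factor that can serve in reprogramming with OCT4, lies at chromosome 4, 55527143 to 55532466 (minus strand, ENSMUSG00000003032). Its level was 40.3, 38.2, 41.8, 37.5 and 38.4 CPM in wild-type libraries 3, 4, 5, 6 and 9 and 45.3, 38.5, 34.7, 35.2 and 37.0 CPM in FXR-/- libraries 8 to 12. The FXR-/- values spread on both sides of the wild-type values, with library 8 highest. The means were 39.2 ± 1.78 and 38.2 ± 4.25 CPM (log2 fold change -0.04, SE 0.0707, edgeR adjusted p = 0.744), and 2 SE spanned -0.18 to 0.10.

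Zfp42 encodes REX1, a zinc-finger protein used as a marker of naive cells, and lies at chromosome 8, 43295063 to 43306980 (minus strand, ENSMUSG00000051176). Its level was 3.85, 4.58, 5.20, 5.03 and 4.91 CPM in wild-type and 5.45, 5.52, 5.67, 4.17 and 6.01 CPM in FXR-/- libraries, in the same library order. Of the FXR-/- libraries 4 were above all wild-type ones, and library 11 was within their range. The means were 4.71 ± 0.533 and 5.36 ± 0.704 CPM (log2 fold change 0.19, SE 0.118, edgeR adjusted p = 0.317), with 2 SE from -0.05 to 0.42. Without wild-type library 3 the log2 fold change was 0.12. A rise as large as that of Pou5f1 lies outside both of these intervals.

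Tfap2c, Prdm14 and Dppa3 are factors of the early germ line. Tfap2c, an AP-2 family factor of primordial germ cells, lies at chromosome 2, 172549593 to 172558622 (plus strand, ENSMUSG00000028640). Its level was 3.10, 3.11, 3.04, 3.38 and 3.43 CPM in wild-type and 4.45, 3.97, 2.40, 3.57 and 3.13 CPM in FXR-/- libraries. Wild-type libraries were close together and FXR-/- libraries ran from below to above them. The means were 3.21 ± 0.181 and 3.50 ± 0.784 CPM (log2 fold change 0.12, SE 0.149, edgeR adjusted p = 0.626, 2 SE from -0.18 to 0.42). Single libraries moved this log2 fold change, to 0.02 without FXR-/- library 8, 0.07 without library 9 and 0.23 without library 10.

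Dppa3 encodes STELLA, a protein of primordial germ cells and oocytes that guards DNA methylation, and lies at chromosome 6, 122626410 to 122630272 (plus strand, ENSMUSG00000046323). Its level was 0.391, 1.09, 1.16, 1.35 and 0.783 CPM in wild-type and 0.855, 1.41, 1.37, 1.59 and 1.39 CPM in FXR-/- libraries. The lowest FXR-/- library, 8, fell among the wild-type values, and wild-type library 3 was lowest of all. The means were 0.955 ± 0.375 and 1.32 ± 0.276 CPM (log2 fold change 0.47, SE 0.272, edgeR adjusted p = 0.269). At this depth the 2-SE interval, -0.07 to 1.02, includes both no change and a change as large as that of Pou5f1. Without wild-type library 3 the log2 fold change was 0.27.

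Prdm14, a PR-domain protein needed for germ cell specification, lies at chromosome 1, 13113457 to 13127163 (minus strand, ENSMUSG00000042414). It had 5, 10, 4, 4 and 6 counts in wild-type and 7, 6, 2, 5 and 8 counts in FXR-/- libraries. Counts of this size did not pass the filter on low counts. With no filter, its log2 fold change was -0.21 (edgeR adjusted p = 0.813).

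Tdgf1 encodes CRIPTO, the membrane-bound coreceptor of Nodal signalling and the only signalling protein of the 10, and lies at chromosome 9, 110939603 to 110946158 (minus strand, ENSMUSG00000032494). It had 1, 0, 0, 1 and 1 counts in wild-type and 3, 4, 1, 1 and 1 counts in FXR-/- libraries, 3 in all against 10 in all. The median was 1 count in both genotypes, under the floor of 3 counts per library taken as the detection limit, so no fold is given. With no filter, edgeR's adjusted p was 0.332. Its pseudogene Tdgf1-ps2 had 0 to 6 counts.

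Lin28b, an RNA-binding protein that blocks maturation of let-7 microRNAs, lies at chromosome 10, 45376620 to 45486395 (minus strand, ENSMUSG00000063804). Its level was 31.4, 38.7, 55.7, 53.6 and 50.7 CPM in wild-type and 52.5, 56.4, 47.0, 61.5 and 66.1 CPM in FXR-/- libraries. The genotypes overlapped, and wild-type libraries 3 and 4 were the lowest. The means were 46.0 ± 10.5 and 56.7 ± 7.45 CPM (log2 fold change 0.30, SE 0.148, edgeR adjusted p = 0.193). The 2-SE interval ran from 0.01 to 0.60. Its lower end just above 0 is no evidence of a rise, because edgeR's test did not pass even before adjustment (unadjusted p = 0.0635). The log2 fold change was 0.19 without wild-type library 3.

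Levels of different genes were compared per kilobase of merged exons, in CPM per kb. In wild-type testes Klf4 was highest, at 12.9 ± 0.585, followed by Lin28b at 5.08 ± 1.16. Tfcp2l1 (2.67 ± 0.342), Pou5f1 (2.62 ± 0.397) and Zfp42 (2.51 ± 0.283) came next and did not differ beyond their spread. Dppa3 (1.07 ± 0.420) and Tfap2c (0.873 ± 0.0491) also overlapped. Nanog was at 0.422 ± 0.0649, its range meeting that of Dppa3, and Prdm14 (0.0674) and Tdgf1 (0.0069) were last. In FXR-/- testes Klf4 stayed first at 12.5. Pou5f1, at 4.98 ± 0.514, stood above every Zfp42 value (2.21 to 3.20) and overlapped both Lin28b (5.18 to 7.29) and Tfcp2l1 (3.50 to 4.43), with a range of 4.26 to 5.66.

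The spread among animals also differed between the 8 tested factors. In wild-type testes the coefficient of variation was lowest for Klf4 (4.54%) and Tfap2c (5.63%) and highest for Dppa3 (39.2%) and Lin28b (22.9%), with Pou5f1 at 15.1%. In FXR-/- testes Tfap2c was the most variable of these 8, at 22.4%, and Pou5f1 the least, at 10.3%. Wild-type library 3 gave the lowest wild-type value in 5 of the 8 tested factors, Pou5f1, Tfcp2l1, Dppa3, Zfp42 and Lin28b. It was also lowest for the mean log2 CPM of 15 pan-germ cell genes, at 5.61 against up to 6.13 in the other wild-type libraries.

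In whole tissue, fewer cells of a type and less RNA per cell cannot be told apart. Pou5f1 was also set against germ cell genes within each library. Such a ratio does not separate cell number from RNA per cell either, and does not say which cells the reads came from. Log2 CPM of Pou5f1 minus the mean of the 15 pan-germ genes was -3.48, -3.19, -3.38, -3.50 and -3.34 in wild-type libraries 3, 4, 5, 6 and 9. In FXR-/- libraries 8 to 12 it was -2.73, -2.51, -2.39, -2.70 and -2.96. The genotypes did not overlap, and the difference of means was 0.72, a 1.65-fold higher ratio. Against 24 genes of undifferentiated spermatogonia the values were -1.80, -1.32, -1.14, -1.28 and -1.15 in wild-type and -0.64, -0.34, -0.22, -0.48 and -0.61 in FXR-/- libraries. Again no value overlapped, with a difference of 0.88, a 1.84-fold higher ratio. Exact permutation of the genotypes over the 10 libraries gave a two-sided p = 0.00794 for each. This is the smallest p the design allows. The adjustment used over the 2 comparisons returned the same value, as it must when both p-values are equal. Pou5f1 alone already separated the genotypes, while the means of the 2 lists differed between them by 0.21 and 0.05 on the log2 scale. Full separation, and with it this p, was therefore nearly fixed beforehand. Both comparisons use the same Pou5f1 values and are not independent.

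**Figure D3:**
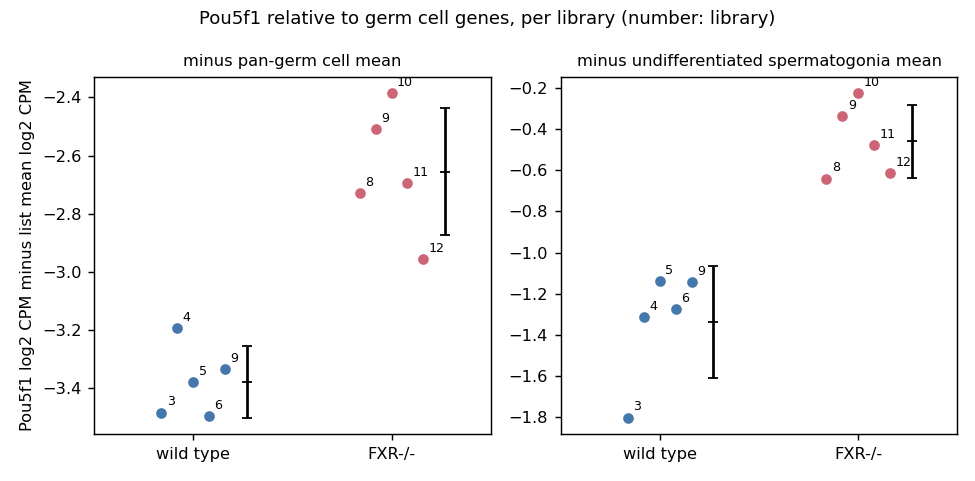
Log2 CPM of Pou5f1 minus the mean log2 CPM of 15 pan-germ cell genes (left) and of 24 undifferentiated spermatogonia genes (right), 1 numbered point per library, with mean and SD of each genotype. All FXR-/- points are above all wild-type points in both panels, and wild-type library 3 is the lowest point on the right.

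Medians of the germ cell lists were smaller than the change of Pou5f1. Of 24 genes of undifferentiated spermatogonia, 21 did not pass the test, Upp1 rose 1.39-fold, and Etv5 and Ccnd2 fell by 0.34 and 0.37 on the log2 scale; the list median was 0.06. Zbtb16, the PLZF gene of undifferentiated spermatogonia, was at 89.5 and 94.8 CPM in wild-type and FXR-/- testes (edgeR adjusted p = 0.536), and the GDNF receptor gene Gfra1 at 24.9 and 21.6 CPM (edgeR adjusted p = 0.151). All 15 pan-germ genes had log2 fold changes above 0 with a median of 0.18, and Mael and Asz1 passed the test. Of 11 genes of differentiating spermatogonia 4 rose (Sohlh1, Sohlh2, Mageb4 and Ccnb1ip1), with a median of 0.21, and of 16 meiotic genes none passed, with a median of 0.23. With 1 library left out in turn, Ccnd2, Asz1, Sohlh2 and Mageb4 kept their calls in all 10 fits, while Upp1 and Sohlh1 lost theirs in 6 fits each, Etv5 and Mael in 7 each and Ccnb1ip1 in 3 (edgeR adjusted p up to 0.0793, 0.0657, 0.109, 0.0900 and 0.0538). No marker of these lists was at 0 in either genotype, and the summed level was 930 to 1004 CPM in wild-type and 865 to 1032 CPM in FXR-/- libraries for undifferentiated spermatogonia and 1369 to 2008 against 1803 to 2235 CPM for the pan-germ genes. Ccnd2, which fell, was the largest part of the spermatogonia sum, at a mean of 320 CPM in wild-type and 247 CPM in FXR-/- libraries.

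With the mean of the pan-germ genes as a covariate in edgeR, Pou5f1 kept a log2 fold change of 0.81 (adjusted p = 0.00462) and Tfcp2l1 one of 0.39 (0.0197), while Nanog, at 0.57, no longer passed (0.0959). Lin28b went from 0.30 to -0.0058 (SE 0.0687). With the undifferentiated spermatogonia as covariate, values were 0.93 for Pou5f1, 0.67 for Nanog and 0.59 for Tfcp2l1, and edgeR called all 3 (adjusted p = 0.00162, 0.0315 and 0.00606).

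**Figure D4:**
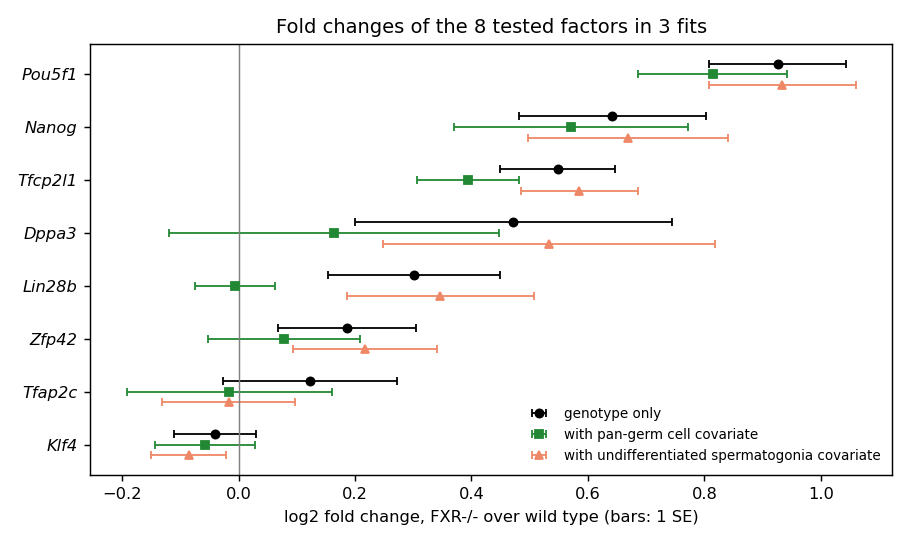
Log2 fold change of each tested factor, FXR-/- over wild type, with bars of 1 SE, in the fit with genotype alone (circles) and with the mean of pan-germ genes (squares) or of undifferentiated spermatogonia genes (triangles) as a covariate. Pou5f1 stays between 0.81 and 0.93, and Lin28b moves from 0.30 to -0.0058 with the pan-germ covariate.

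Markers of other cells moved with genotype. Of 12 duct epithelium genes 8 rose, including the keratins Krt7, Krt8 and Krt18, and the list averaged 2.74 ± 0.150 in wild-type and 3.50 ± 0.148 in FXR-/- libraries on the log2 CPM scale, with no overlap; its summed level was 189 to 225 against 276 to 364 CPM and no marker was at 0. These values stand beside the rises of Pou5f1, Nanog and Tfcp2l1, the last a gene also known from duct epithelia. With the duct mean as covariate log2 fold changes were 0.99 (SE 0.365) for Pou5f1, 1.02 for Nanog and 0.35 (SE 0.308) for Tfcp2l1, and edgeR called none (adjusted p = 0.808, 0.821 and 0.873). Because the duct list separates the genotypes completely, duct content and genotype cannot be told apart in that fit, in which 19 of 18559 genes were called. Of 13 adipocyte genes 9 rose, with a summed level of 73.7 to 231 CPM in wild-type and 225 to 1330 CPM in FXR-/- libraries and none at 0; with their mean as covariate Pou5f1, Nanog and Tfcp2l1 stayed called at 0.76, 0.90 and 0.64 (edgeR adjusted p = 0.0244, 0.0386 and 0.0302). Sertoli genes fell in 9 of 18 cases (Clu, Dhh and Amhr2 among them) while Cst9 rose, and Leydig genes fell in 3 of 9 (Hsd3b1, Nr5a1 and Scarb1). Of 11 macrophage genes Ctss rose, of 11 endothelial genes Erg rose, and of 19 immediate-early genes Jun, Jund and Klf6 fell. With 1 library left out in turn, Ctss lost its call in 6 of 10 fits, Erg in 5, Jun in 7, Jund in 2, Klf6 in 3, Hsd3b1 in 5 and Scarb1 in 1, with edgeR adjusted p-values of at most 0.108, while Krt7, Krt8, Krt18, Clu, Dhh, Amhr2, Cst9 and Nr5a1 kept theirs. The part of these other lists in the results was not tested.

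Most genes of the wider pluripotency network did not pass the test. Over 6 lists of related genes, 70 of 76 were tested, 2 rose, 6 fell and 11.4% were called, against 13.9% of all genes, and their median log2 fold change was 0.07. Among 13 other pluripotency transcription factors, 12 tested, Tbx3 rose from 11.7 ± 2.45 to 16.7 ± 2.97 CPM (1.43-fold, edgeR adjusted p = 0.0419). Nr0b1, the DAX1 gene, which is also active in Sertoli and Leydig cells, went from 52.8 ± 6.23 to 39.6 ± 8.16 CPM (log2 fold change -0.41, edgeR adjusted p = 0.0483). Sox2, the partner of OCT4 on DNA, had only 6 to 17 counts per library and was not tested, Esrrb was at 1.81 and 2.30 CPM (edgeR adjusted p = 0.208) and Sall4 at 75.2 ± 7.35 and 79.7 ± 15.7 CPM (edgeR adjusted p = 0.685). Of 11 tested pluripotency-associated genes 10 did not pass and Tcl1, an AKT coactivator, fell from 7.32 ± 1.02 to 5.49 ± 0.672 CPM (log2 fold change -0.41, edgeR adjusted p = 0.0387).

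The signalling genes around the factors gave single calls. In the Nodal and Cripto list, 10 of 14 genes in the table were tested and only Acvr1b, a type I activin receptor, passed, from 74.7 ± 6.15 to 64.2 ± 2.03 CPM (log2 fold change -0.22, edgeR adjusted p = 0.0227). Like Tdgf1, the ligand gene Nodal (1 to 6 counts) and the coreceptor gene Cfc1 (0 to 3 counts) were at or near the detection limit in these libraries. In the LIF and STAT3 list of 9, Jak1, the kinase that relays LIF receptor signals, fell from 418.7 ± 14.2 to 357 ± 15.1 CPM with no overlap (log2 fold change -0.23, edgeR adjusted p = 0.0045), and Stat3 was at 95.9 and 101 CPM (edgeR adjusted p = 0.260). Of 14 germ cell specification genes Bmp4, the inducer of primordial germ cells, rose from 9.32 ± 1.25 to 12.3 ± 1.54 CPM (1.32-fold, edgeR adjusted p = 0.0328). The other 13 did not pass, but 11 of the 14 had log2 fold changes above 0, with a median of 0.13. The list averaged 3.82 ± 0.0341 in wild-type and 3.98 ± 0.0584 in FXR-/- libraries on the log2 CPM scale, with no overlap. This separation of the list mean was not tested.

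In the LIN28 and let-7 list of 14, Zcchc6, the uridyltransferase TUT7, fell from 67.2 ± 2.31 to 57.0 ± 2.59 CPM (log2 fold change -0.24, edgeR adjusted p = 0.0050), and the exonuclease gene Dis3l2 from 31.4 ± 1.04 to 28.1 ± 1.30 CPM (log2 fold change -0.16, edgeR adjusted p = 0.0470). Neither overlapped between genotypes. Lin28a, the paralogue of Lin28b, was at 99.7 ± 5.93 and 112 ± 19.7 CPM (edgeR adjusted p = 0.308). With 1 library left out in turn, the calls of Jak1 and Zcchc6 held in each of the 10 fits. Those of Acvr1b (3 fits, adjusted p up to 0.0589), Bmp4 and Tbx3 (7 each, up to 0.0731 and 0.101), Tcl1 and Dis3l2 (8 each, up to 0.0894 and 0.107) and Nr0b1 (9, up to 0.104) were lost in some.

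Genes next to the factors that rose were compared to see whether whole neighbourhoods changed. None of the 6 nearest tested neighbours of Pou5f1 passed; Tcf19, 6.72 kb away, had a log2 fold change of -0.02 (edgeR adjusted p = 0.953) and Cchcr1 one of -0.29 (edgeR adjusted p = 0.150). Near Nanog, Mfap5 rose (log2 fold change 0.37, edgeR adjusted p = 0.0040) and Foxj2 fell (log2 fold change -0.17, edgeR adjusted p = 0.0438), while Slc2a3 between them did not pass (-0.18, edgeR adjusted p = 0.0515). Dppa3 itself is a neighbour of Nanog, 81.1 kb between starts. Near Tfcp2l1, Clasp1 (log2 fold change -0.12, edgeR adjusted p = 0.0498) and Inhbb (log2 fold change -0.34, edgeR adjusted p = 0.0295) fell. With 1 library left out, Mfap5 kept its call in all 10 fits, and Foxj2, Clasp1 and Inhbb lost theirs in 6, 9 and 5 (edgeR adjusted p up to 0.101, 0.131 and 0.0746).

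H2-Q10, a class Ib histocompatibility gene 35.9 kb from Pou5f1, was singled out after its values were seen. It was at 60.6, 49.1, 52.2, 50.6 and 57.1 CPM in wild-type libraries 3, 4, 5, 6 and 9. In FXR-/- libraries 8 and 9 it was at 34.7 and 30.8 CPM and in libraries 10, 11 and 12 at 1.06, 2.42 and 1.59 CPM (log2 fold change -1.95, SE 0.759, edgeR adjusted p = 0.108). All FXR-/- values of H2-Q10 lay below all wild-type values, and the FXR-/- libraries fell into a higher pair and a lower group. Another of these neighbours, H2-Q7, was at 7.04 and 6.63 CPM in FXR-/- libraries 8 and 9. In libraries 10, 11 and 12 it was at 3.87, 4.58 and 4.11 CPM, and wild-type libraries ran from 4.30 to 6.11 CPM. Cchcr1 and Psors1c2 had smaller gaps of the same kind, and H2-Q6 and Tcf19 had none. The cause of this division was not tested. Pou5f1 was at 10.9 and 12.7 CPM in the pair and 11.7, 11.0 and 9.58 CPM in the others, without such a division.

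**Figure D5:**
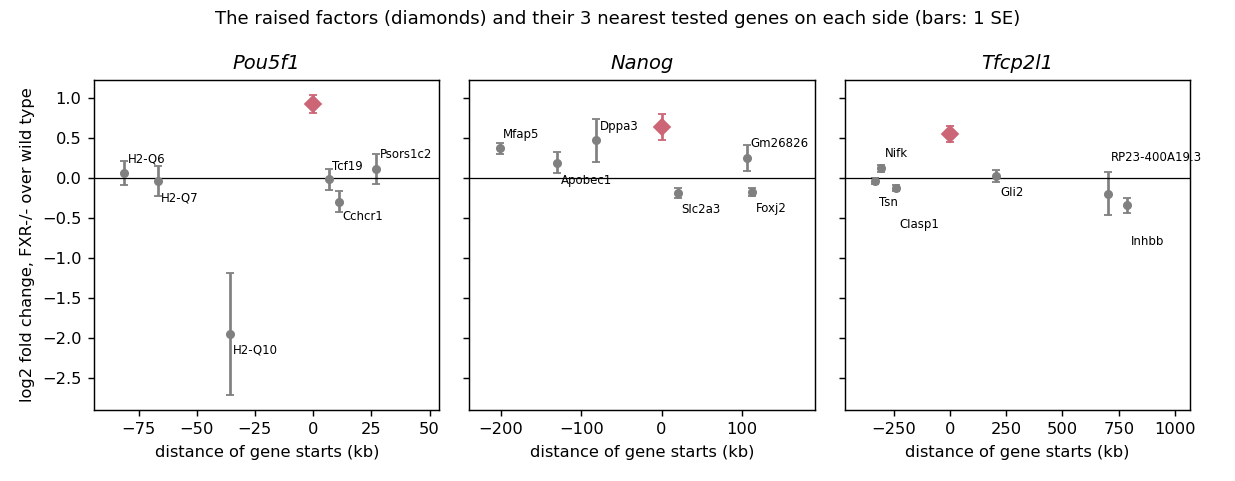
Log2 fold change with 1 SE of Pou5f1, Nanog and Tfcp2l1 (diamonds) and of the 3 nearest tested genes on each side (circles), by the distance between gene starts in kb. The diamonds lie above all their neighbours, and H2-Q10 near Pou5f1 has the lowest value, -1.95.

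The genes whose profiles over the 10 libraries were most like those of the 3 factors were ranked among 13820 candidates by the root-mean-square difference of mean-centred log2 CPM. This difference includes the shift between genotypes, so genes with a fold change like that of the factor come near it by construction. Nearest to Pou5f1 was Serpini1, the neuroserpin gene (difference 0.170, 18.5 ± 1.51 and 39.2 ± 2.84 CPM), followed by L1cam (0.177), Tlr5 (0.186), Acp5 (0.198, 5.96 ± 0.998 and 13.9 ± 2.07 CPM) and Lrrc15 (0.201), against a median of 0.513 over all candidates. Nearest to Nanog were Lhx4 (0.156), Fmn1 (0.159), Phyhd1 (0.164), Lekr1 (0.166) and Tuba4a (0.171), with a median of 0.389. Nearest to Tfcp2l1 were Ccdc152 (0.0836), Ccdc172 (0.0837), Mpp7 (0.0846), Epcam (0.0903) and Gabre (0.101), with a median of 0.345. Epcam, an epithelial adhesion gene and member of the duct list that germ cells also express, was at 46.8 ± 7.30 and 70.6 ± 11.2 CPM. The 3 sets of 5 share no gene.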

How the data were processed

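RNA from frozen whole testes was extracted with Trizol and sequenced from TruSeq libraries on 1 flowcell, per the labels' protocols and the series' design text. Per the submitters' processing notes, FastQC 0.10.1, CASAVA, Bowtie, TopHat2 2.0.10, Bowtie2 2.1.0 and the build mm10 were used. How reads were counted, with which annotation, strand setting and multiple-alignment rule, is not given in the sources used here, so reads shared with near-identical copies or antisense genes could be assigned either way. The authors deposited raw whole-number counts per gene and library, the input of every test. The authors' normalized columns had lost their decimal marks and were not used. All rows carried a gene identifier and 30212 of 30719 matched GENCODE M21 (GRCm38, the build also called mm10), which gave positions and exon lengths. Date-like symbols (27) were restored by identifier.

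Genes passing filterByExpr were tested with edgeR 4.0.16 in R 4.3.3 (TMM factors, quasi-likelihood F-test, two-sided, genotype as the only term, Benjamini-Hochberg adjustment over 18559 genes, threshold 0.05). Log2 fold changes are FXR-/- over wild type, with SE as the size of the log2 fold change over the square root of F. Mean log2 CPM used a prior count of 2. A gene with a median of at most 3 counts in both genotypes was at the detection limit, and one with a mean under 1 CPM in both was near it. Depth was 32330029 to 39655170 counts per library. Alternatives used DESeq2 1.42.0, limma 3.58.1, other scaling and filters, marker-list covariates and left-out libraries. The edgeR step was tested on simulated data.

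The members and the 17 gene lists were chosen with earlier results of these data known. Named genes were the members, up to 4 called genes per list by smallest p (otherwise the 2 most abundant, which for the meiotic list were Stag3 and Tex15), called neighbours among the 3 on each side, the 5 most alike genes and Nr1h4. Other genes were named for their role after their values were seen. Promoter sequences are from RefSeq (GRCm38.p6).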

Additional observations from a re-analysis of the deposited data

Results flagged for a closer look

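In 20 groups of 5 values, each group was searched for a value far from the other 4; chance alone gives about 1 in 20, and 2 were found. Pou5f1 in wild-type library 3 was at 4.30 CPM, below the other wild-type libraries at 6.13 to 6.42 CPM, with a gap of 0.866 of the group's range. Pou5f1 relative to the undifferentiated spermatogonia genes was -1.80 in the same library, against -1.32 to -1.14 in the others, a gap of 0.737 of the range. Both values rest on the same Pou5f1 counts of this library and are not independent, so they cannot be set against that rate. Without that library Pou5f1 kept its call.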

How the results depend on the processing

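Pou5f1 and Tfcp2l1 kept their calls in 22 of 24 alternatives and Nanog in 17, and the germ-relative differences of Pou5f1 stayed at 0.65 to 0.80 and 0.70 to 0.93 in all 13 alternatives run for each. With the duct epithelium covariate, log2 fold changes were 0.99 for Pou5f1, 1.02 for Nanog, 0.35 for Tfcp2l1, -0.27 for Dppa3 and 0.37 for Klf4, and 0 members were called; without Epcam in that list (added after seeing the data) they were 1.05, 1.06, 0.46, -0.042 and 0.34, again with 0 called. Dppa3 and Klf4 changed sign in these duct fits, in which the covariate and the genotype cannot be told apart. With the pan-germ covariate Nanog was at 0.57 and not called, Tfap2c at -0.016 and Lin28b at -0.0058; with undifferentiated spermatogonia Tfap2c was at -0.017, and with adipocytes Klf4 was at 0.037; the cause was not tested. With 1 library left out, Nanog ranged from 0.55 to 0.70, losing its call in 4 of 10 fits, 2 to 3 members were called, and genes called over the table ranged from 1427 (without FXR-/- library 11) to 2867 (without FXR-/- library 10), against 2576. Wild-type library 4 (1601) and FXR-/- library 12 (1635) also moved that count by over 1.5 times. DESeq2 called 3483 genes. No paired analysis was possible because the genotypes share only the replicate number 9. Counts limit Nanog, Dppa3, Prdm14 and Tdgf1, which had 72 or fewer per library.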

Other observations

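Among relatives of the members, Tfap2b, an AP-2 family gene noticed after its values were seen, had 12 to 30 counts in wild-type and 35 to 144 in FXR-/- libraries with no overlap (log2 fold change 1.58, edgeR adjusted p = 0.0134), while Tfap2a had a log2 fold change of 0.31 (edgeR adjusted p = 0.219) and Tfap2e one of 0.31 (edgeR adjusted p = 0.459). Pou5f2, a germ cell POU gene, had 1 to 8 counts per library and was not tested.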
